A study of Bos taurus with 48 samples.

Results

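The genes described here are the cyclin-dependent kinase inhibitors CDKN1A (p21), CDKN1B (p27), CDKN1C (p57) and CDKN2C (p18), the growth arrest genes GADD45A and GADD45B, and the cell cycle regulators RB1 and MDM2, measured in longissimus muscle of cattle. They were found by symbol: a probe belongs to them when its gene name, or the symbol in parentheses in its description, equals one of the 8 names. All 8 genes had a probe, and 7 of the 8 passed the filter on dim probes, out of 14626 genes that passed it. These genes were selected on earlier results of the same arrays, and which measured values guided the choice is not stated. The adjusted p-values given below therefore describe the fit and are not independent support.

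RNA of 35 animals was hybridised to 48 2-colour arrays, so that each array carried 2 groups of the same time point and the 96 channels fall into 26 conditions. In the developmental experiment, Piedmontese × Hereford crosses, from a heavily muscled sire breed, were set against Wagyu × Hereford crosses, from a breed known for marbled beef, at 60, 135 and 195 days of gestation, at birth, and at 3, 7, 12, 20, 25 and 30 months of age. In the nutrition experiment, 4 Belmont Red animals on a restricted diet were set against 4 on a growth diet at diet times 0, 1 and 2. The labels call the restricted diet a weight loss diet and do not give the length of the diet times in days. The paper describes these time points as adult, in an experiment of nutritional deprivation and re-alimentation. It does not say which diet times fell in which phase. The fetuses and newborn calves were different animals at each age, whereas 8 of the 9 post-natal animals and 7 of the 8 diet animals were sampled at more than 1 time. GP041A and GP041B at 195 days were counted as separate fetuses, although the labels do not say whether they are, or share a dam. The 60-day point rests on 1 animal of each cross, the 12-month Wagyu point on 2 animals, and diet time 2 on 2 animals per diet. Each value below is the level of a gene in 1 animal at 1 time, as log2 intensity after normalization, and a level is not compared between genes. All tests are limma fits over 14626 genes with Benjamini-Hochberg adjustment, and a gene was called when its adjusted p was under 0.05. In the cross comparisons, the p-values measure the spread between animals. The fetal against post-natal fit had no term for age, so differences between the ages of a stage enter its spread too. For the steps and the diets, 1 estimate of the spread was shared over all developmental or all diet values. Repeated values of an animal were treated as correlated there, so that spread within animals over time also enters. The spread used for the 60-day point is thus largely that of other ages.

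Withdrawal from the cell cycle is part of muscle formation: dividing myoblasts stop cycling before they fuse into fibers. CDKN1A, CDKN1B and CDKN1C belong to the CIP/KIP family, which binds cyclin-CDK complexes broadly, whereas CDKN2C belongs to the INK4 family, which binds CDK4 and CDK6. RB1 is the retinoblastoma protein, which holds E2F transcription factors inactive until CDKs phosphorylate it. GADD45A and GADD45B encode stress-inducible proteins that act in growth arrest and in stress kinase signalling, and MDM2 encodes the ubiquitin ligase that degrades p53, the activator of CDKN1A and GADD45A. In bulk muscle, a lower level can come from fewer cells of a type or from less RNA per cell, and these cannot be told apart here.

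The part of each transcript that was measured is the stretch that its 60-base probe matches. The last 30 bases of the probes of the 8 genes are printed here, because each gene is read through a single probe and near-identical sequence would mix the signals of related genes. The capitals mark AATAAA, the letters of the polyadenylation signal, which was searched on the strand shown.
CDKN1A: cagcaggtgctcAATAAAtattcctgatga
CDKN1B: tctttatcattttcatatgctctcacactc
CDKN1C: tgctgaaactcagtgcaaaaaatggggggc
CDKN2C: cagtacccaacttggagactttgtttttaa
GADD45A: agtttgggtaattttggtttttatgccctc
GADD45B: agacagaggggaagcttacagatacatata
RB1: ggaacttcagagatcgtgtattgagatttc
MDM2: aagaacttggggttattttttcatcagctt

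No pair of member probes shared a run longer than 7 bases over their full length, GADD45A and GADD45B included. Probes were compared only with each other and not with the transcripts of related genes. The RB1 probe and a second probe for RB1 shared a run of only 5 bases. Short shared runs therefore do not show that a probe reads 1 gene alone, and this was not tested. Only the CDKN1A probe held AATAAA, as did 11.8% of all 21468 distinct probe sequences, and 3.88% held the opposite-strand letters TTTATT. A letter match is a description of the probe and does not show where the transcript ends.

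The prenatal and birth arrays shared slides 1 to 3, whereas all post-natal arrays lay on other slides, so that fetal against post-natal differences, and the step from birth to 3 months, cannot be told apart from slide. Each diet time lay on a slide of its own, so that a change over diet time cannot be told apart from slide either, whereas the diets were compared within a slide. Between 49.9% and 76.4% of the probes of an array channel were well above background. The 7 tested genes were well above background in all 96 channels.

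The labelled tissue was checked against markers, and 1 fetus went against its label. In the Piedmontese cross GP672 at 135 days, the 9 muscle fiber markers had a mean level of 10.62, against 14.57 to 15.42 in the other 4 fetuses of that age, and ACTA1, the skeletal actin, was 10.44 against 16.31 to 17.58. Of these markers 8 of 9 were lower than in all 11 other fetuses, as were 4 of 4 myoblast and satellite cell markers. All 5 fat cell markers were higher than in all other fetuses, with a mean of 13.40 against 8.61 to 9.82 at 135 days, as were 4 of 4 blood markers. This library is called the library labelled GP672, and results that rest on it are given with and without it. In all other samples the muscle fiber list had a mean level of 13.35 or more.

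Between the 12 fetuses and the 9 post-natal animals, CDKN1C and CDKN1A fell, and GADD45A, CDKN2C and RB1 rose (differences of -3.25 ± 0.22, -1.62 ± 0.43, 2.26 ± 0.21, 0.94 ± 0.18 and 0.54 ± 0.14 on the log2 scale, SE). These are 5 of the 7 tested genes, in a comparison in which 75.0% of all genes were called. CDKN1C changed most, being 9.5-fold lower after birth, and GADD45A was 4.80-fold higher. The stages pool ages that differ. Mean CDKN1A was 12.09 at 195 days, beside 12.05 at 3 months and 12.37 at 30 months. Mean RB1 was 10.02 at 135 days, beside 10.01 at 3 months. For CDKN1C, GADD45A and CDKN2C no fetal age mean reached a post-natal one, although CDKN2C came close (11.57 at 195 days, 11.65 at 3 months). The animals of the 2 stages did not overlap for CDKN1C, CDKN2C and GADD45A and overlapped for CDKN1A and RB1. The share of all genes without overlap was not counted, so this is not read as particular to these genes. GADD45B and MDM2 differed by -0.11 and 0.11 on the log2 scale and were not called. Without the 60-day animals, an alternative added after seeing the data, MDM2 was also called (difference 0.18, adjusted p = 0.0398), and the other calls were the same genes. Without GP672 the same 5 genes were called, with CDKN1A at -1.84 and CDKN1C at -3.12. Of the dividing cell markers, 1 of 11 rose and 10 fell, whereas 6 of 9 muscle fiber markers rose and 7 of 7 fibroblast and matrix markers fell. The part of these cell types in the changes of the inhibitors was not tested.

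**Figure D1:**
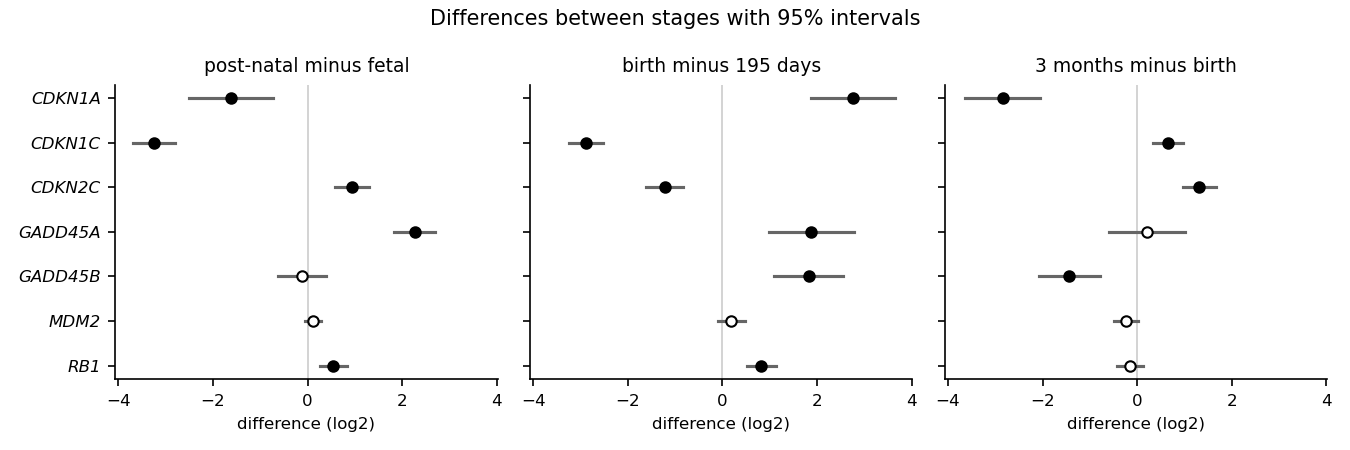
Log2 differences of the 7 tested genes with 95% intervals for post-natal minus fetal animals, birth minus 195 days and 3 months minus birth. Points are differences and a filled point passed the adjusted p threshold of 0.05. CDKN1C lies lowest in the post-natal minus fetal comparison, at -3.25, and CDKN1A has opposite signs in the steps into birth and out of birth.

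CDKN1C, the inhibitor p57, marked the fetal samples. Its level was 14.91 in both 60-day fetuses. At 135 days it was 15.41, 16.22 and 15.11 in the Piedmontese crosses and 15.07 and 14.96 in the Wagyu crosses. At 195 days it was 14.61 and 14.02 in the Piedmontese and 14.44, 13.88 and 14.01 in the Wagyu crosses. The value of 16.22 is that of GP672. Every 195-day fetus was below every 135-day fetus, and CDKN1C fell by 1.16 ± 0.19 (SE, adjusted p = 2.37e-06), or by 0.95 without GP672 (adjusted p = 3.94e-05). At birth the 6 calves ranged from 10.97 to 11.90 with a median of 11.21, far below any fetus. It fell by 2.89 ± 0.18 in this step (7.39-fold, adjusted p = 4.09e-21). Within the 3 shared slides this last difference was between -3.11 and -2.76. Over the 6 post-natal ages its lowest value was 10.92 and its highest 12.50, and both crosses lay in the same range. From birth to 3 months it rose by 0.65 ± 0.16 (adjusted p = 5.20e-04), a call that was lost under median centring of each array and dye (0.38, adjusted p = 0.485), and from 3 to 20 months it fell by 0.51 ± 0.12 (adjusted p = 8.34e-04).

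CDKN1A, the inhibitor p21 and a p53 target, peaked at birth. The 60-day fetuses had 13.89 and 14.29. At 135 days, 4 of the 5 fetuses had 14.02, 14.50, 14.04 and 14.23, whereas the library labelled GP672 had 10.53, the lowest prenatal value. At 195 days the levels were 12.31, 12.47, 12.00, 12.15 and 11.54, so that this age lay below all 135-day fetuses except GP672. The fall from 135 to 195 days was 1.36 ± 0.47 with all fetuses (adjusted p = 0.0242) and 2.08 without GP672 (adjusted p = 5.17e-05). With GP672 kept, this call was lost with processed signals (-1.04, adjusted p = 0.147) and when GW625, GP012, GW780, GW600 or GP921 was left out (adjusted p between 0.0631 and 0.0854). The limma call was also lost under median centring (-0.99, adjusted p = 0.431) and when fitted on the compared groups alone (-1.43, adjusted p = 0.190).

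At birth CDKN1A reached 15.38, 15.29 and 15.86 in the Piedmontese calves and 13.24, 15.89 and 13.49 in the Wagyu calves. In the Wagyu cross birth did not stand out, with a mean of 14.20 beside 14.29 at 60 days and 14.13 at 135 days. The Wagyu calves at 13.24 and 13.49 lay below both 60-day fetuses. Birth was not tested against 60 or 135 days. No calf overlapped with a 195-day fetus or with a 3-month animal. The rise from 195 days to birth was 2.76 ± 0.45 (6.76-fold, adjusted p = 2.86e-07), and it lay between 2.17 and 3.58 within the 3 shared slides. From birth to 3 months CDKN1A fell by 2.84 ± 0.40 (7.18-fold, adjusted p = 3.02e-08), a step that crosses slides. Its level then ranged from 10.02 to 12.95 between 3 and 25 months.

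CDKN2C, the INK4 inhibitor p18, ran the other way. Its level was 10.15 and 10.42 in the 60-day fetuses and 11.22, 11.58, 11.44, 11.39 and 11.43 in the 135-day fetuses, of which 11.58 is that of GP672. These groups did not overlap, and the rise was 1.13 ± 0.27 (adjusted p = 0.00126), 1.08 without GP672 (adjusted p = 0.00254), and was not called without the 60-day fetus GP663 (adjusted p = 0.0842). At birth the Piedmontese calves had 9.72, 10.86 and 11.24 and the Wagyu calves 10.36, 9.82 and 10.09. Only the calf at 11.24 reached the lower end of the 195-day range of 11.23 to 11.84. The fall into birth was 1.22 ± 0.19 (adjusted p = 1.66e-07) and the rise to 3 months was 1.31 ± 0.17 (adjusted p = 6.05e-09). CDKN2C was thus low at the age at which CDKN1A was high.

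**Figure D2:**
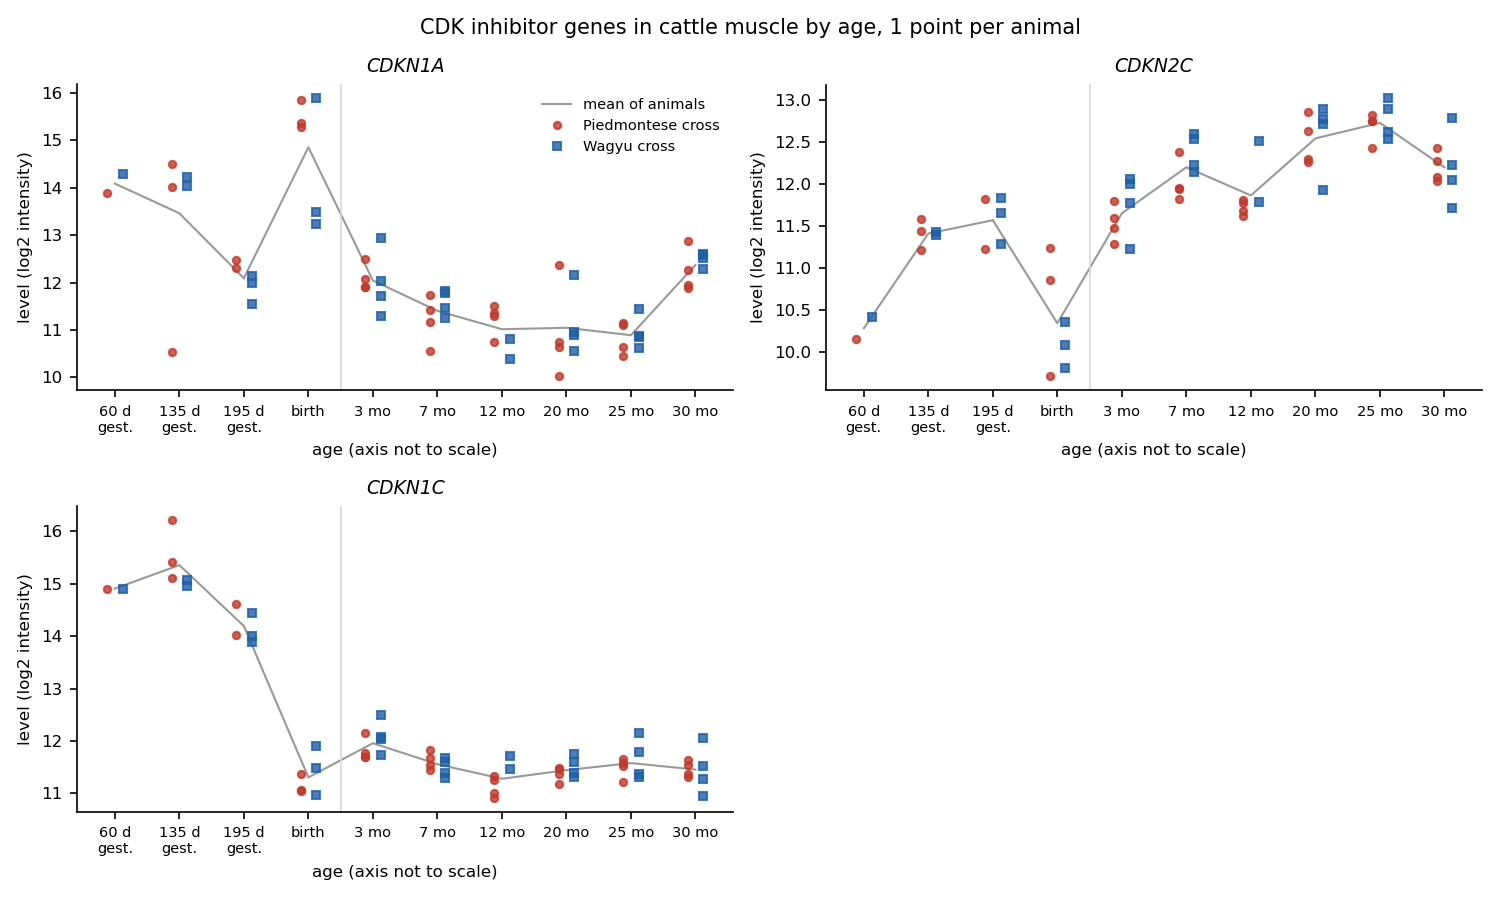
Level (log2 intensity) of CDKN1A, CDKN2C and CDKN1C by age, with 1 point per animal, crosses marked by colour and shape, and a line through the mean of animals; the vertical line separates slides 1 to 3 from the post-natal slides. The lone low CDKN1A point at 135 days is the library labelled GP672. The mean of CDKN1A over both crosses is highest at birth, where CDKN2C is low, and CDKN1C drops between 195 days and birth.

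GADD45A rose towards birth. It was 9.92 and 10.17 at 60 days, 9.99, 11.12, 10.31, 9.65 and 9.97 at 135 days, of which 11.12 is that of GP672, and 11.65, 10.85, 10.73, 10.79 and 10.92 at 195 days. The newborn calves ranged from 12.07 to 13.27 with a median of 13.06, all above every fetus. The rise into birth was 1.88 ± 0.45 (3.68-fold, adjusted p = 2.24e-04), with 1.39 to 2.18 within slides. The earlier fetal steps, of 0.14 and 0.83, were not called, nor were they without GP672 (-0.07 and 1.03).

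GADD45B also rose into birth but did not stay high. The fetuses had 9.37 and 9.41 at 60 days and 10.01 to 10.73 at 135 days, of which 10.73 is that of GP672. At 195 days they had 11.03, 10.50, 10.97, 11.17 and 10.44. The fetal steps, of 0.87 and 0.55, were not called (adjusted p = 0.275 and 0.312), and 60 days was not tested against 195 days. The newborn calves had 12.60, 13.08 and 12.47 in the Piedmontese and 11.27, 12.91 and 13.45 in the Wagyu cross. The lowest calf was still above the highest fetus. The rise into birth was 1.82 ± 0.37 (3.54-fold, adjusted p = 1.72e-05), with 0.92 to 2.52 within slides. From birth to 3 months GADD45B fell by 1.44 ± 0.32 (adjusted p = 2.11e-04), and its level fell further to between 9.38 and 10.26 at 12 months (7 to 12 months, -0.77 ± 0.28, adjusted p = 0.0429).

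RB1 dipped in late gestation. Its level was 9.44 and 9.49 at 60 days, and 10.24, 10.09 and 10.31 in 3 of the 135-day fetuses, with GW780 close to 10 and GP672 at 9.47. At 195 days it was 9.47, 9.07, 9.46, 9.33 and 9.33, just below every 135-day fetus. RB1 fell by 0.70 ± 0.16 between these ages (adjusted p = 7.30e-04), or by 0.83 without GP672, and rose by 0.82 ± 0.15 into birth (adjusted p = 5.74e-06), where the calves had 9.49 to 10.77. MDM2 levels lay between 10.86 and 12.09 in all 83 values of animals and times, and no step before birth or into the first 3 months was called. With the processed signals of the scanner software MDM2 was called in the step into birth (0.60, adjusted p = 0.00581) and from birth to 3 months (-0.45, adjusted p = 0.0270). Its age means spanned 0.45, the narrowest range of the 7 genes, but under median centring of each array and dye they spanned 1.13, against 1.00 for RB1.

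**Figure D3:**
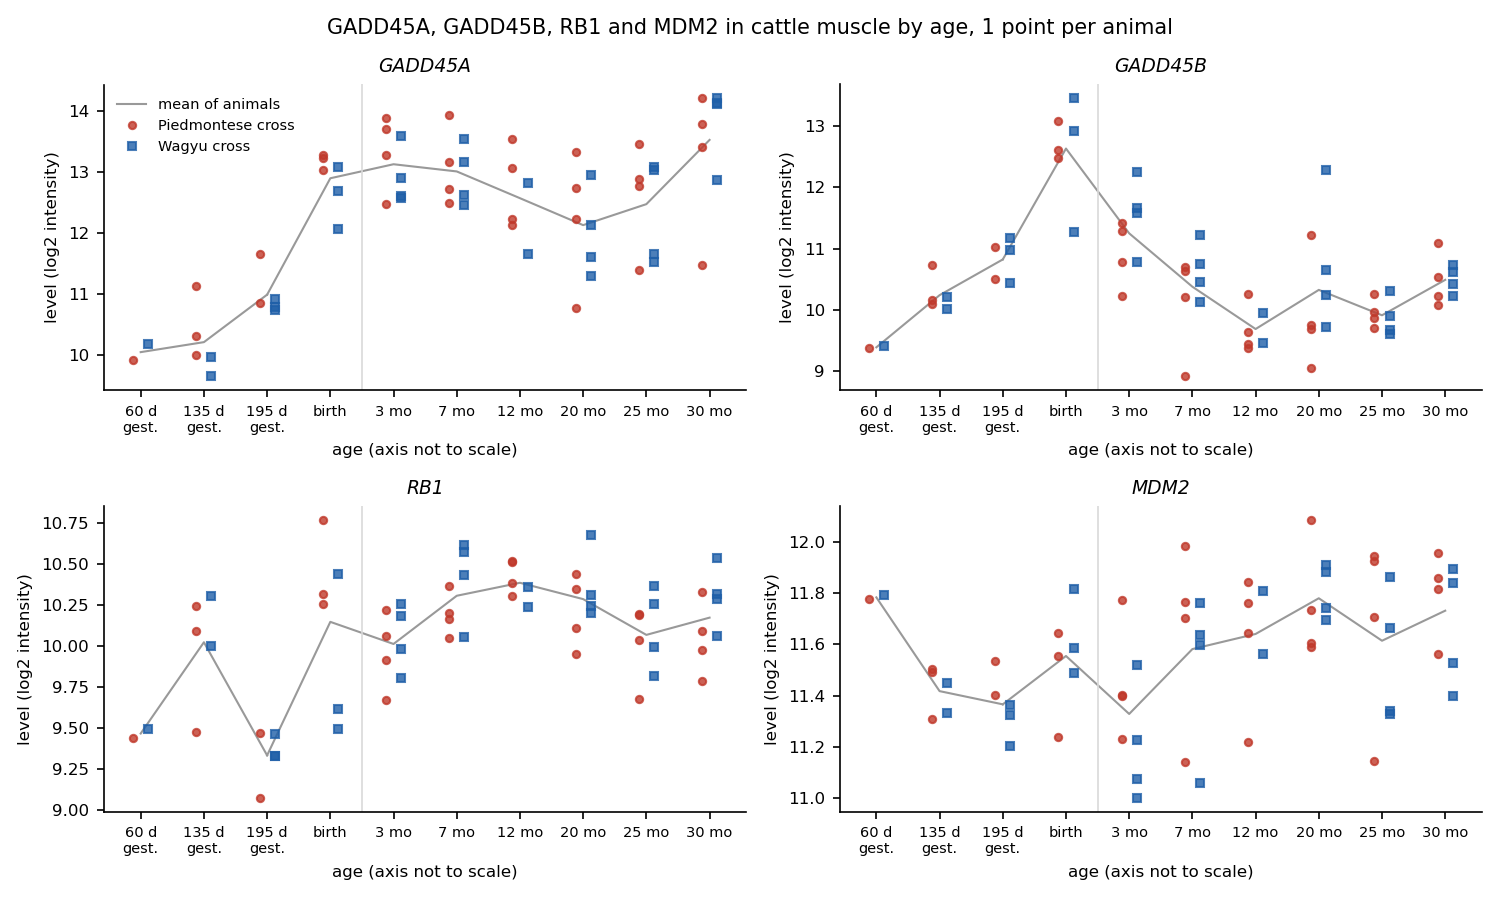
Level (log2 intensity) of GADD45A, GADD45B, RB1 and MDM2 by age, with 1 point per animal, crosses marked by colour and shape, and a line through the mean of animals. Both GADD45 genes are higher at birth than in any fetus, RB1 is lowest at 195 days, and the age means of MDM2 span 0.45.

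Read by step, the counts of called genes were as follows. From 60 to 135 days 1 of 7 was called, where 16.9% of all genes were, and without GP672 RB1 was called too (0.70, adjusted p = 0.0119). From 135 to 195 days it was 3 of 7, against 26.5% of all genes. From 195 days to birth it was 6 of 7, all except MDM2, against 67.1%. From birth to 3 months it was 4 of 7, against 49.7%. These shares, like that between fetuses and post-natal animals, are read against backgrounds in which a large part of all genes changed. With each array and dye centred on its median, 0 of 7 were called in the first 2 of these steps.

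Other genes of the same pathways were read in the step into birth, in which 67.1% of all genes were called. Of 10 FOXO and glucocorticoid target genes, 9 rose and 0 fell, led by PDK4 (7.41 on the log2 scale), which restrains pyruvate oxidation, and FKBP5 (5.95), a glucocorticoid-induced chaperone partner. Of 9 immediate early genes, 6 rose and 2 fell, with ATF3 at 4.26. The p53 and the G1 lists had smaller called shares than all genes. Of 17 other p53 pathway genes, 5 rose and 4 fell, among them GADD45G (2.97) and CCNG1 (1.92), which rose, and SESN3 (-3.23), which fell. Of 8 G1 cyclins and kinases, 1 rose and 4 fell, with cyclin D1 (CCND1) at -1.85. Of 11 markers of dividing cells, 1 rose and 10 fell, with TOP2A at -3.28 and CCNB2 at -2.58. The medians over these lists were 3.76, 1.74, 0.08, -0.44 and -1.58, beside 0.05 over all genes. The fibroblast and matrix markers fell in the same step (6 of 7, median -3.03), as did the blood markers (4 of 4). The mean level of the FOXO and glucocorticoid list was 9.70 to 10.19 at 195 days and 12.64 to 14.12 at birth, and that of the dividing cell list averaged 9.81 and 9.70 in the Piedmontese and Wagyu crosses at 195 days and 8.16 and 8.10 at birth. The part of any of these in the changes of the 7 genes was not tested.

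After 3 months the changes were smaller. Over the same 4 slides, CDKN1A, CDKN1C, GADD45A and GADD45B fell between 3 and 20 months, and CDKN2C, MDM2 and RB1 rose. All 7 genes were called, where 29.7% of all genes were. CDKN2C rose by 0.89 ± 0.13 (adjusted p = 4.27e-07), from 11.22, 11.69 and 12.06 as lowest, median and highest of 8 animals to 11.92, 12.67 and 12.89. CDKN1A fell by 1.00 ± 0.30 (adjusted p = 0.00943), from 11.29, 11.97 and 12.95 to 10.02, 10.82 and 12.38. GADD45A fell by 1.00 ± 0.31 (adjusted p = 0.00966) and GADD45B fell by 0.92 ± 0.25 (adjusted p = 0.00337). MDM2 rose by 0.45 ± 0.10 (adjusted p = 2.92e-04), and RB1 rose by 0.27 ± 0.11 (adjusted p = 0.0410). The age groups overlapped for each of the 7 genes. Within each of the 4 slides, the direction of each gene was the one given here. CDKN2C, CDKN1C, GADD45B and MDM2 were called with any animal left out. CDKN1A was not without GP130 (adjusted p = 0.0550), GADD45A was not without GP285 (-0.70, adjusted p = 0.0957), and RB1 was not without GW245, GW179, GP201, GP285 or GW212 (adjusted p between 0.0547 and 0.190). With each array and dye centred on its median, 1 of 7 was called.

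Taken by its parts, this interval held most calls between 3 and 7 months, with 5 of 7 against 19.7% of all genes: CDKN2C (0.53), RB1 (0.30) and MDM2 (0.28) rose, and GADD45B (-0.79) and CDKN1C (-0.41) fell. Of these, only CDKN2C was called with any animal left out. RB1 lost its call without any of GW245, GW169, GP130, GW179, GP201, GP285 and GW212, MDM2 without GW169, GP130, GP285 or GW212, CDKN1C without GW169, GP130 or GW212, and GADD45B without GP273, GP285 or GW212 (adjusted p between 0.0520 and 0.133). Between 7 and 12 months only GADD45B was called, 1 of 7 against 18.2%, and it lost this call without any of GW245, GW169, GP130, GW179, GP201, GP285 and GW212 (adjusted p between 0.0525 and 0.113). Without GW169, CDKN1C was called (adjusted p = 0.0294). Between 12 and 20 months only CDKN2C was called, with a rise of 0.64 ± 0.14 (adjusted p = 0.00116), 1 of 7 against 16.5%. Between 20 and 25 months none of the 7 was called by limma, against 15.0% of all genes in a step that crosses slides, and 1 of them, RB1, had an unadjusted p under 0.05.

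Between 25 and 30 months, measured on slides 10 and 12, CDKN1A rose again. Its lowest, median and highest levels over 8 animals were 10.45, 10.87 and 11.44 at 25 months and 11.90, 12.40 and 12.88 at 30 months, with no overlap, a rise by 1.48 ± 0.30 (2.79-fold, adjusted p = 2.06e-04). GADD45A rose by 1.05 ± 0.31 (adjusted p = 0.00824), although its 30-month values spread from 11.47 to 14.20, and its call was lost without GW245 or GW179 (adjusted p = 0.0599 and 0.0555). CDKN2C fell by 0.53 ± 0.13 (adjusted p = 0.00207), a direction that turned under median centring of each array and dye (0.52, adjusted p = 0.127). These are 3 of 7 genes, against 23.6% of all genes. Both slides showed the same signs for these 3 genes.
In the same step, 8 of 11 dividing cell markers, 4 of 7 fibroblast and matrix markers and 4 of 4 blood markers fell, and 4 of 10 FOXO and glucocorticoid targets rose; their part was not tested.

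No difference between the crosses was called. Piedmontese minus Wagyu was tested over the 18 fetuses and newborn calves and over the 9 post-natal animals, and 0 of 7 genes were called in either by limma, as was 0% of all genes, of which 736 and 711 had an unadjusted p under 0.05. Before and at birth the largest difference was that of GADD45A, 0.46 ± 0.17 (adjusted p = 0.896), or 0.37 ± 0.15 without GP672 (adjusted p = 0.872), and in both fits it was the only one of 7 with an unadjusted p under 0.05. After birth the largest was that of GADD45B, -0.52 ± 0.31 (adjusted p = 1.00), and none of the 7 had an unadjusted p under 0.05. For CDKN1A the 95% interval of the difference ran from -0.87 to 1.33 before and at birth, or from -0.08 to 1.26 without GP672 (difference 0.59, adjusted p = 0.872), and from -0.65 to 0.29 after birth.

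On the diets, CDKN1A and CDKN2C moved in opposite directions, and the directions were exchanged between the diets. At diet time 0 CDKN1A was 11.66, 10.97, 12.16 and 13.61 in the restricted group and 13.75, 14.72, 12.69 and 12.86 in the growth group. At diet time 1 it was 15.07, 12.93 and 14.80 in the restricted animals and 11.43, 12.45, 10.91 and 11.51 in the growth animals. The groups overlapped at time 0 and were apart at time 1. At time 2 the levels were 11.74 and 11.60 against 12.94 and 12.29, with the restricted animals again lower. Restricted against growth was thus -1.40 ± 0.55 at time 0 (adjusted p = 0.169), 2.70 ± 0.59 at time 1 (6.49-fold, adjusted p = 0.00513) and -0.81 ± 0.77 at time 2 (adjusted p = 1.00). The change from time 0 to 1 differed between the diets by 4.10 ± 0.73 (adjusted p = 0.00276).

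CDKN2C gave the mirror image at times 0 and 1, whereas at time 2 its diet difference had the same sign as that of CDKN1A. At time 0 its level was 11.84, 12.06, 11.47 and 11.27 in the restricted and 10.87, 10.74, 10.97 and 11.35 in the growth animals. At time 1 it was 10.46, 11.45 and 10.30 against 11.83, 11.82, 11.96 and 12.27, with every restricted animal below every growth animal. At time 2 it was 10.80 and 11.88 against 11.48 and 11.50. The diet difference was 0.68 ± 0.24 at time 0 (adjusted p = 0.126), -1.25 ± 0.26 at time 1 (adjusted p = 0.00364) and -0.20 ± 0.34 at time 2. The change from time 0 to 1 differed by -1.93 ± 0.32 (adjusted p = 0.00196). Both interaction calls held with any animal left out. CDKN1A and CDKN2C were the 2 of 7 genes called at time 1, against 21.3% of all genes, with RB1 as another call without RG208 (0.61, adjusted p = 0.0230), and the 2 of 7 whose change from time 0 to 1 differed between diets, against 14.8%.

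**Figure D4:**
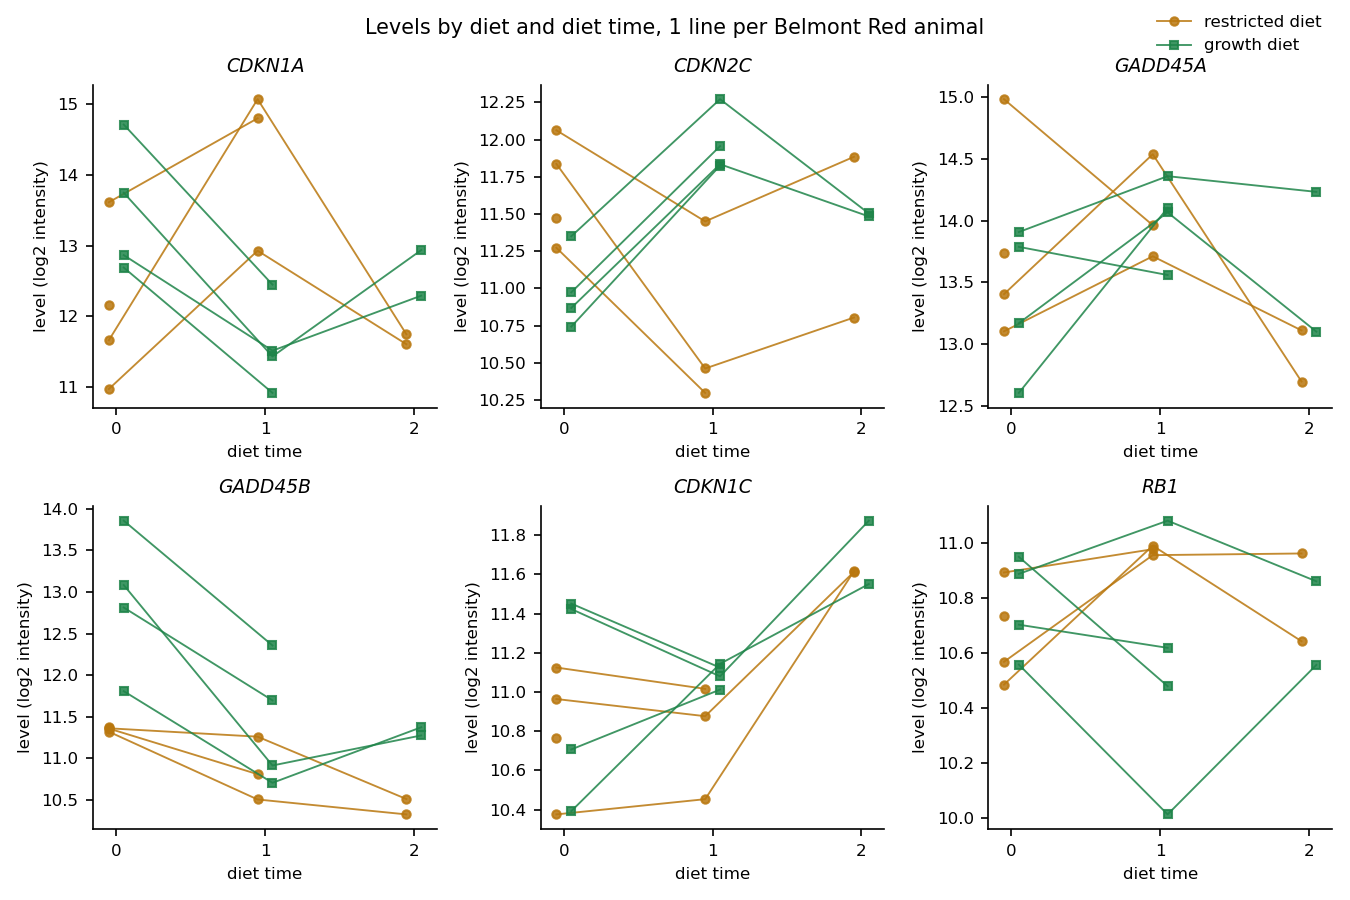
Level (log2 intensity) of 6 of the genes at diet times 0, 1 and 2, with 1 line per animal and the diet marked by colour and shape. From time 0 to 1, CDKN1A goes up in the 3 restricted animals measured at both times and down in the 4 growth animals, and CDKN2C does the opposite.

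The changes within each diet, which cross slides, were as follows. In restricted animals CDKN1A rose by 2.17 ± 0.54 from time 0 to 1 (adjusted p = 0.0131) and CDKN2C fell by 0.94 ± 0.24 (adjusted p = 0.0139), 2 of 7 genes against 18.7% of all. Without RL27 neither was called (adjusted p = 0.206 and 0.139), and without RL671 CDKN2C was not (adjusted p = 0.0553). In growth animals CDKN1A fell by 1.93 ± 0.49 (adjusted p = 0.0315), GADD45B fell by 1.47 ± 0.31 (adjusted p = 0.0141) and CDKN2C rose by 0.99 ± 0.22 (adjusted p = 0.0161), 3 of 7 against 6.54%. CDKN1A and CDKN2C lost these calls without any of the 4 growth animals (adjusted p between 0.0579 and 0.176), and GADD45B without RG208 (adjusted p = 0.125). From time 1 to 2 CDKN1A fell by 2.42 ± 0.65 in restricted animals (adjusted p = 0.0380) and CDKN1C rose by 0.88 ± 0.25 (adjusted p = 0.0486), 2 of 7 against 6.14%; both calls were lost when any of the 3 restricted animals was left out. In growth animals 0 of 7 were called from time 1 to 2, against 0.0615%, with 1 of 7, CDKN1C, at an unadjusted p under 0.05. The change from time 1 to 2 differed between the diets only for CDKN1A (-3.51 ± 0.90, adjusted p = 0.0425), 1 of 7 against 3.76%, and this call was lost without RL27, RG166, RG157, RL671 or RG208 (adjusted p between 0.0504 and 0.322).

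GADD45B differed between the diet groups already at time 0. It was 11.32, 11.36, 11.38 and 11.36 in the restricted group and 11.81, 13.86, 12.81 and 13.08 in the growth group. The difference was -1.54 ± 0.35 (adjusted p = 0.0204), with no overlap, and GADD45B was the only 1 of 7 genes called at time 0, against 4.68% of all genes. The call was lost without RL27, RL24 or RG208, and each loss left the difference between -1.54 and -1.47 (adjusted p between 0.0710 and 0.0798). At time 1 the groups overlapped (-0.56 ± 0.38, adjusted p = 0.315). At time 2, 0 of 7 genes were called by limma, as was 0% of all genes (280 had an unadjusted p under 0.05), and GADD45B was the only member with an unadjusted p under 0.05 (-1.08 ± 0.49). Immediate early genes, which respond within minutes to stimulation, differed in the same direction at time 0: 5 of 9 were lower in the restricted group and 0 higher, with ATF3 at -5.15 and FOS at -4.01. The mean level of that list was 11.28 to 11.81 in the restricted and 12.34 to 14.15 in the growth animals, and its part in the GADD45B difference was not tested.

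Other lists were read at diet time 1 beside CDKN1A and CDKN2C, where 21.3% of all genes were called. In restricted against growth animals, 7 of 9 muscle fiber markers were lower and 1 higher, with ACTA1 at -6.09, and 5 of 7 fibroblast and matrix markers were lower, with COL3A1 at -4.54. The mean level of the fibroblast list was 9.47 to 10.30 in the restricted and 11.82 to 13.44 in the growth animals. Of 11 dividing cell markers 6 were lower and 1 higher. Of 17 p53 pathway genes 2 were higher and 2 lower, close to the share of all genes, and of 3 other CDK inhibitors 0 were called. The part of these lists in the 2 member changes was not tested. GADD45A, MDM2, RB1 and CDKN1C were not called between the diets at any time, with differences at time 1 of 0.04, -0.26, 0.43 and -0.31.

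Over the 26 condition means CDKN1A and CDKN2C ran opposite to each other, with Pearson r = -0.855. Over the 20 developmental means r was -0.858 and over the 6 diet means -0.887, and without GP672 it was -0.842 over the 26 means. The means share arrays and slides, and post-natal and diet animals recur among them, so this is a description without a p. CDKN1C and GADD45A were also opposed, with r = -0.912 over the 26 conditions and -0.587 over the 6 diet conditions, and -0.922 over the 26 without GP672. Among all pairs of the tested genes, these pairs were the most opposed over the 26 conditions. Over the 6 diet means the most opposed pair was CDKN2C and RB1 (r = -0.940), and CDKN1A and RB1 ran together (r = 0.774).

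**Figure D5:**
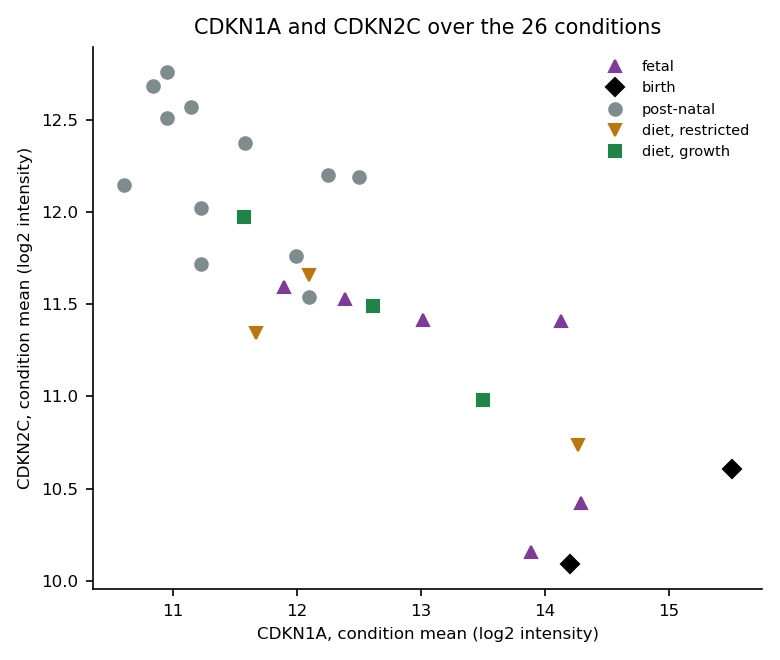
Condition means (log2 intensity) of CDKN1A, on the horizontal axis, and CDKN2C, on the vertical axis, over the 26 conditions, with symbols for fetal, birth, post-natal and diet conditions. Conditions with high CDKN1A have low CDKN2C (r = -0.855), the newborn calves and the restricted animals at diet time 1 among them.

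The genes whose condition means were most like those of a member were, among 11850 named candidates, GLCE (r = 0.946), P4HA3 (0.901) and PACSIN2 (0.892) for CDKN1A, and PABPC5 (0.987), AGPAT4 (0.983) and C20orf117 (0.980) for CDKN1C. For CDKN2C they were LGMN (0.926), ZBTB7C (0.909) and EBP (0.906), and for GADD45A they were SQOR (0.962), ARRDC2 (0.958) and ADIPOR2 (0.955). For GADD45B they were SDC4 (0.901), SLCO4A1 (0.896) and PPL (0.886), and for RB1 they were YY1 (0.905), DKFZp686L1814 (0.884) and ASCIZ (0.884). For MDM2 the values were lower, with LUC7L2 (0.766) and C10orf12 (0.702) as the nearest.

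By level, the 10 developmental ages can be put in order for each gene and set against the spread within ages. CDKN1A ran from 14.86 at birth over 14.09 at 60 days and 13.46 at 135 days to 10.89 at 25 months, with a spread of 0.73. Only birth from 60 days (0.77) and 135 days from 30 months (1.09) were neighbours further apart than that spread, and without GP672 the 135-day mean was 14.20 ± 0.22 (SD, n = 4), 0.11 above 60 days. The spread was then 0.58, and birth from 135 days (0.66), 60 days from 30 months (1.72) and 3 from 7 months (0.64) lay further apart than it. CDKN1C had 135, 60 and 195 days at the top, each further from the next than its spread of 0.30. Without GP672 the 135-day mean was 15.14, and its gap of 0.23 to 60 days was within the spread of 0.27. At 60 days and 195 days the gaps were wider than the spread with and without it, and among the 7 later ages only 3 months stood apart from its neighbour (0.38). CDKN2C was highest at 25 months (12.72) and lowest at 60 days (10.29), with birth beside it (10.35), and the gap of 1.07 between 135 days and birth was over 3 times the spread of 0.33.

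GADD45A was highest at 30 months (13.52) and lowest at 60 days (10.04), with gaps wider than its spread of 0.69 only between 20 months and 195 days (1.14) and between 195 and 135 days (0.78). Without GP672 the lowest mean was that at 135 days (9.98), with 60 days 0.07 above it, and 195 days was set off from 60 days by 0.94. GADD45B was highest at birth (12.63), set off from 3 months by 1.38 against a spread of 0.59, and no other neighbours differed by more than that. RB1 split into 8 ages between 10.01 and 10.39 and a low pair, 60 days (9.47) and 195 days (9.33), a gap of 0.55 against a spread of 0.26. MDM2 had no neighbouring ages further apart than its spread of 0.23.

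CDKN1B, the inhibitor p27, could not be followed. Its probe was well above background in 2 of 96 channels, both at 25 months, and its levels at the other ages and diet times, from 6.59 to 6.93, are at the background of the arrays. At 25 months its levels ran up to 7.70. A second RB1 probe, matched through RefSeq and not by the rule, was well above background in 22 of 96 channels, just under the 24 needed, and was not tested. Its sequence ends in gcagaaaatgaatgagagcgtggatacctc, and its mean level was 6.75 ± 0.05 (SD, n = 12) in fetuses and 6.98 ± 0.08 (SD, n = 9) in post-natal animals. Of the 6 p27 turnover genes, which include its ubiquitin ligase subunits, 3 rose and 2 fell between fetal and post-natal animals, where 75.0% of all genes were called.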

How the data were processed

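Muscle RNA was labelled with Cy3 and Cy5, hybridised and scanned by the authors, and Agilent Feature Extraction 9.5.1 gave, per the file headers, a mean intensity, a background intensity and flags for each spot and channel. The deposited log10 ratio of red over green for each spot, which is also the series table, was not used in the tests. Sample labels gave condition, animal and dye of each channel. The authors' values after their mixed model were not used here.

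Background was corrected by normexp (offset 50) and arrays were normalized by loess within and Aquantile between arrays in limma 3.58.1 (R 4.3.3, statmod 1.5.0). Control and outlier-flagged spots were omitted, and replicate spots were averaged. RefSeq gave a gene for 16716 of 21475 probes; 5 probes that name CDKN1A only inside the name of another gene were left out. Probes entered the tests if at least 24 of 96 channels were well above background and every array had a value. Each gene's dye effect was subtracted, and channels were averaged to 1 value per animal and time, 64 developmental and 19 diet values.

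Tests were limma's lmFit and eBayes, two-sided, with animal as a random block (estimated correlation 0.315 and 0.199), time and cross as terms, and Benjamini-Hochberg adjustment over all genes at 0.05. There were 22 comparisons. The fetal against post-natal comparison and those of the crosses used 1 value per animal. The scripts were tested on simulated data. The members and the 16 lists of other genes (137 genes, 7 of them not on the array) were chosen with earlier results of these data known. All members were named, and of another list the up to 3 called genes with the largest change; some are left out for room. The alternatives were other normalizations and background corrections, other filters, the slide effect removed, no replicate block, fits on the compared groups alone, and each animal left out.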

Additional observations from a re-analysis of the deposited data

Results flagged for a closer look

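In groups of 4 to 10 animals of a time point, 84 sets of values were examined for a single animal far from the others, of which chance would single out about 1 in 20, and 5 were. The Piedmontese fetus GP672 at 135 days had a CDKN1A level of 10.53 against 14.02 in the nearest animal, a gap of 0.880 of the group's range, and a GADD45B level of 10.73 against 10.21, a gap of 0.728. In this library 8 of 9 muscle fiber markers were lower and 5 of 5 fat cell markers higher than in all 11 other fetuses, and their part in these values was not tested. The Piedmontese fetus GP041A at 195 days had a GADD45A level of 11.65 against 10.92 (0.801). The Wagyu cross GW169 at 12 months, measured on 3 arrays, had a CDKN2C level of 12.51 against 11.81 (0.783). The Piedmontese cross GP273, present only at 7 months, had a GADD45B level of 8.92 against 10.13 (0.528).

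The change between diet times differed between the diets by the interaction test for CDKN1A from time 0 to 1 (4.10) and from time 1 to 2 (-3.51), and for CDKN2C from time 0 to 1 (-1.93).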

How the results depend on the processing

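Of 1575 single-gene values under other settings, 1499 stayed called in the same direction or stayed uncalled, 58 lost and 16 gained a call, and 2 turned. Of 1323 values with an animal left out, 1251 were kept in this sense, 65 lost and 7 gained a call, and none turned. Direction was not compared for values uncalled in both fits. It could differ there, as for MDM2 between the crosses before and at birth (0.006, and -0.004 without GP672). The 2 that turned, under median centring between 25 and 30 months, were CDKN1C (-0.12 to 0.90) and CDKN2C (-0.53 to 0.52), where the median of all genes shifted by 0.46. The count of called genes was 2 in every setting for the change from time 0 to 1 between diets. It was 5 for fetal against post-natal animals, but 6 with processed signals and without the 60-day animals, and 6 from 195 days to birth, but 7 with processed signals. At diet time 1 it was 2, but 3 under median centring and without RG208. Under median centring the count was 0 from 60 to 135, 135 to 195 days, 3 to 7, 7 to 12 and 12 to 20 months and at diet time 0, 1 from 3 to 20 months and in restricted animals from time 0 to 1 and 1 to 2, 2 from 20 to 25 months and 6 from 25 to 30 months. With processed signals it was 2 from 60 to 135 days and 0 from 7 to 12 months, CDKN1A from 135 to 195 days and CDKN1C from 3 to 7 months lost their calls, and MDM2 gained one from birth to 3 months and in restricted animals from time 0 to 1, and with the slide effect removed it was 2 from 60 to 135 days. With the looser filter or with the dye effect kept it was 3 from 3 to 7 months and 0 from 7 to 12 months, in restricted animals from time 1 to 2 and for the change from time 1 to 2. With no replicate block it was 2 from 3 to 7 months, 1 in growth animals from time 0 to 1, and 0 from 7 to 12 months, in restricted animals from time 1 to 2 and for the change from time 1 to 2. Fitted on the compared groups alone it was 0 at diet time 0 and in restricted animals from time 0 to 1 and 1 to 2. The cause was not tested. With an animal left out the counts ranged from 0 to 2 (60 to 135 days), 2 to 3 (135 to 195 days), 4 to 5 (birth to 3 months), 1 to 5 (3 to 7 months), 0 to 1 (7 to 12 months), 5 to 7 (3 to 20 months), 2 to 3 (25 to 30 months), 0 to 1 (diet time 0), 2 to 3 (diet time 1), 0 to 3 (restricted, time 0 to 1), 0 to 0 (restricted, time 1 to 2), 0 to 1 (growth, time 0 to 1) and 0 to 1 (change from time 1 to 2).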
